A study of Drosophila melanogaster with 11 samples.

Results

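Chromosome 4, the dot chromosome of *Drosophila melanogaster*, was examined through its own contacts in MicroC libraries. In this assay MNase digests crosslinked chromatin down to nucleosomes, neighboring DNA ends are joined by ligation, and sequencing of both ends of a joined fragment gives 1 contact. Its contacts were all counts of a library in which at least 1 end lay on chromosome 4. These were 8 of the 36 pairs of sequences in each library, chromosome 4 with itself and with 7 partners (2L, 2R, 3L, 3R, X, Y and the mitochondrial genome M), and gave 88 counts over 11 libraries. The libraries came from embryos collected 12–16 hr after egg laying, of 4 genotypes that differ at the *nhomie* boundary of *eve* on chromosome 2. In *nhomie forward* (2 libraries), *nhomie* was put back in its own orientation, and this is the study's positive control. In *nhomie reverse* (3 libraries) the same boundary was inserted in the opposite orientation, in *homie forward* (3 libraries) it was replaced by *homie*, the boundary at the other end of the *eve* domain, and in *λ DNA* (3 libraries) by phage DNA. All 4 genotypes carry the same exchange sites around the insert, left by CRISPR editing and ΦC31 cassette exchange, and none is an unmodified line. The edited sequence lies outside chromosome 4, whose length was the same in the aligned genomes of all 4 genotypes. A library pooled many whole embryos, so that a value is a mean over all cell types and, since no sorting by sex is described, over females and males. Each genotype is represented by its own fly stock, so that genotype, stock and the making of its libraries cannot be told apart.

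Chromosome 4 is the smallest autosome of the fly. It carries active genes in an arm that is packed with repeats and bound by the heterochromatin protein HP1a, and its genes are also bound by POF, a protein that marks this chromosome. The pericentric heterochromatin of fly chromosomes gathers in the nucleus in the chromocenter, and the Y chromosome is heterochromatic over nearly its whole length. Chromosome 4 corresponds to Muller element F, which was an X chromosome in the ancestors of flies. The assembled sequence of chromosome 4 was 1348131 bp long, or 0.980% of the summed length of the 8 sequences to which reads were aligned. RefSeq places 80 protein-coding genes on it in the Release 6 assembly, or 59.3 per Mb, against 93.3 to 113 per Mb in the 5 large arms (2L, 2R, 3L, 3R and X). Among them are *ci* (chromosome 4, 47710 to 57041), the transcription factor of Hedgehog signaling, and *pan* (69326 to 114270), the TCF factor of Wingless signaling. The Pax6 genes *ey* (697689 to 721173) and *toy* (989725 to 1007922) direct eye development, and *sv* (1088798 to 1113317) is a Pax2 gene of sensory organs. Contacts of single genes were not analysed here, since the counts are for whole sequences.

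The libraries held 87012109 to 472473246 unique contacts, and the 2 *nhomie forward* libraries were the deepest. Replicates 2 and 3 of *λ DNA*, *nhomie reverse* and *homie forward* stood close together. Over the 28 pairs of different sequences, their chi-square, divided by its degrees of freedom, was 1.44, 1.90 and 1.21, whereas replicate 1 of the same genotypes differed from replicate 2 by 899, 2890 and 445. Over the 7 partners of chromosome 4 alone, replicates 2 and 3 agreed within sampling noise in these genotypes (1.52, 1.52 and 1.47 per degree of freedom, chi-square p = 0.166, 0.166 and 0.185). In *nhomie reverse*, the split of the contacts of chromosome 4 into cis and trans differed slightly between them (chi-square p = 0.0361). They were counted as 1 sample, which gave 8 samples, 2 per genotype. The 2 *nhomie forward* libraries also agreed over the 7 partners (1.10 per degree of freedom) but not over all 28 pairs (6.69), and were kept as 2 samples. Replicate 1 of the other genotypes was also apart in how many of its cis contacts (both ends on the same arm) spanned at least 1 kb. These were 28.7% to 41.6% of the cis contacts in these 3 libraries and 47.9% to 64.7% in the other 8.

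Most contacts of chromosome 4 joined it to itself, yet this share was lower than in every large arm. Chromosome 4 had 575601 contacts in the smallest library, *λ DNA* replicate 1, and 3589745 in the largest, *nhomie forward* replicate 2. Of these, 384578 to 2475936 were cis and 176797 to 1113809 were trans. The cis share of chromosome 4 was 69.2% and 69.0% in *nhomie forward* replicates 1 and 2. It was 66.8%, 68.3% and 68.4% in replicates 1, 2 and 3 of *λ DNA*, and 64.1%, 63.0% and 63.1% in those of *nhomie reverse*. In *homie forward* it was 71.2%, 78.4% and 78.4%. The 95% Wilson interval of these shares reached at most 0.122 percentage points to either side and covers counting error only, so that the spread between libraries, not depth, sets their error.

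Compared with the mean of the 5 large arms, the cis share of chromosome 4 was lower, with a mean difference of −12.9 ± 2.49 percentage points (SD, n = 8). The difference lay between −15.3 and −8.10 points in the 11 libraries and had the same sign in each of them (two-sided exact sign-flip permutation test over 8 samples, p = 0.00781, the smallest that this test can give). Set against single sequences, chromosome 4 was below each of the 5 large arms in 11 of 11 libraries, with the smallest mean difference from X (−12.1 points) and the largest from 3R (−14.4 points). It was above the Y chromosome by 31.2 points and above M by 49.6 points, again in 11 of 11 libraries (exact sign-flip test, Benjamini-Hochberg adjusted p = 0.00781 for each of the 7 sequences). The cis share of chromosome 4 thus lay between the large arms and the Y chromosome. The assembled Y chromosome, at 3.67 Mb, is longer than chromosome 4, at 1.35 Mb, and the part of length in the cis share was not tested. Cis contacts under 1 kb, which include fragments that were never ligated, are not counted by chromosome in the values used here and stayed in.

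**Figure D1:**
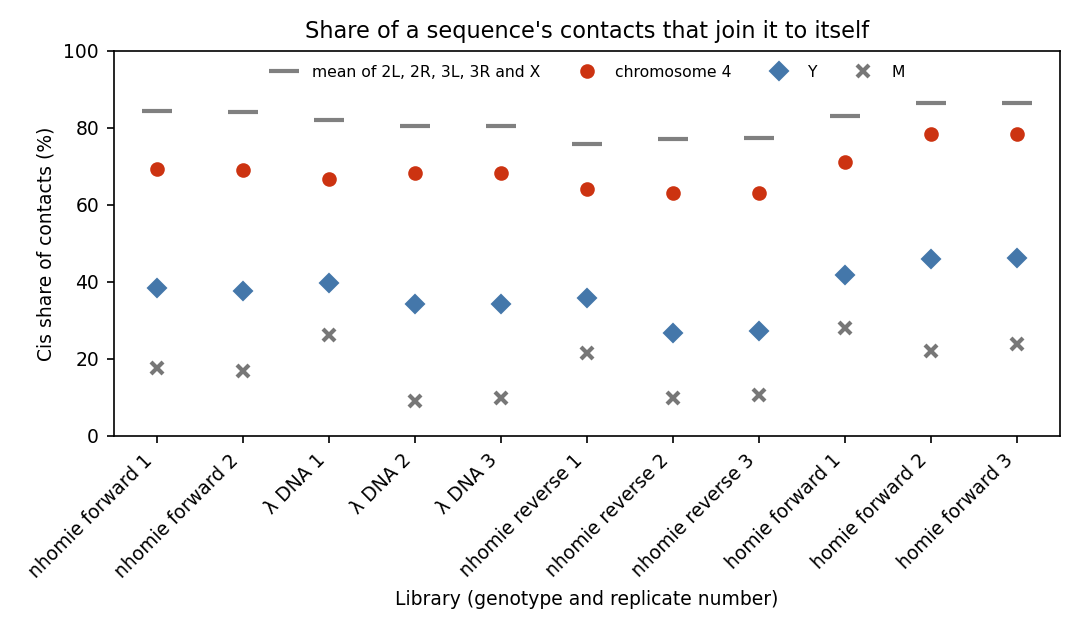
Percent of the contacts of a sequence that join it to itself (vertical axis) in each of the 11 libraries (horizontal axis), for chromosome 4 (circles), the mean of the 5 large arms (bars), Y (diamonds) and M (crosses). The circles (63.0% to 78.4%) lie under the bars (75.7% to 86.6%) and above the diamonds in all 11 libraries.

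Per length, the cis contacts of chromosome 4 were fewer than those of the large arms, whereas its trans contacts lay above theirs in some libraries and below in others. Chromosome 4 had 0.485 to 0.746 times as many cis contacts per kb as the 5 large arms together, with a mean of 0.603 (geometric mean, n = 8). It was below the large arms in 11 of 11 libraries (exact sign-flip permutation test over 8 samples, p = 0.00781). How much of the length of chromosome 4 can be mapped was not examined. For trans contacts, each large arm was given a weight, its tendency to be found in trans contacts, fitted on the contacts between large arms of different chromosomes, and chromosome 4 was given a weight from its contacts with these arms. The trans weight of chromosome 4 per bp was 0.858 to 1.18 times that of the large arms. It was above 1 in 8 of 11 libraries, and no difference from 1 was called (exact sign-flip permutation test over 8 samples, p = 0.227). In these 8 libraries the trans weight of chromosome 4 per bp was also above that of every single large arm, the highest of which lay at 1.04 to 1.06.

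The 3 libraries with a trans weight per bp below that of the large arms were all replicate 1. The values were 0.934 in *λ DNA*, 0.858 in *nhomie reverse* and 0.983 in *homie forward*, whereas the other 8 libraries lay between 1.10 and 1.18. These are the same 3 libraries that had the lowest share of long cis contacts, and the part of that difference in these values was not tested. Over cis and trans contacts together, chromosome 4 held 0.552% to 0.794% of all contact ends, less than its 0.980% of the length. Of the trans ends alone it held 1.04% to 1.35%.

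**Figure D2:**
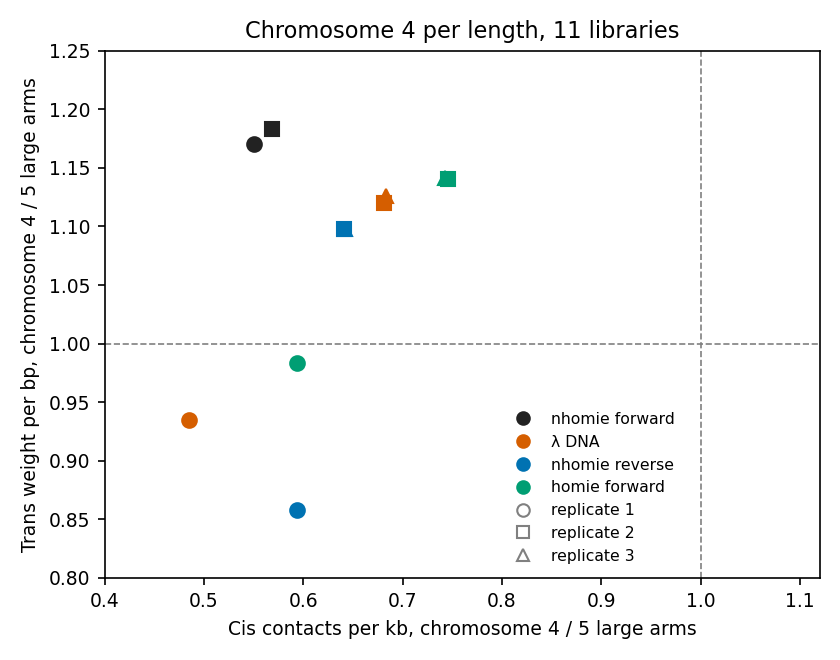
Cis contacts per kb of chromosome 4 relative to the 5 large arms (horizontal axis) against its trans weight per bp relative to the same arms (vertical axis), with 1 point per library, the color giving the genotype and the symbol the replicate number. All 11 points lie left of 1 on the horizontal axis (0.485 to 0.746), and the 3 points under 1 on the vertical axis are replicate 1 libraries.

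The trans contacts of chromosome 4 went mostly to the large arms. The arm 3R took 22.4% to 24.8% of them, 3L took 21.4% to 22.7%, 2R took 18.7% to 19.7%, 2L took 16.6% to 18.1% and X took 15.6% to 18.3%. The Y chromosome took 0.525% to 1.06% and M 0.191% to 0.521%. To set these shares against the general tendency of each partner to form trans contacts, each count was divided by an expected count, the product of the weights of the 2 sequences in the same library. The weight of chromosome 4 is scaled to its contacts with the 5 large arms, so that its ratios to these arms average to about 1 and a ratio above 1 for one arm goes with a ratio below 1 for another. This does not apply to the ratios to Y and M.

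By this measure chromosome 4 had far more contacts with Y than expected. It had slightly more with X and 3L and slightly fewer with 3R and 2L, while 2R and M were not called in either direction. The geometric mean ratio of observed to expected contacts was 2.35 for Y, 1.09 for X, 1.05 for 3L, 0.992 for 2R, 0.976 for M, 0.950 for 3R and 0.948 for 2L (n = 8). Against the expected count, 3 of 7 partners were called higher (3L, X and Y) and 2 of 7 lower (2L and 3R) by the exact sign-flip test (Benjamini-Hochberg adjusted p = 0.0115 over the 28 pairs for each of these 5). Among all 28 pairs of sequences, 32.1% were called higher and 39.3% lower, so that being called was not particular to chromosome 4. The test did not call 2R (adjusted exact p = 0.210) or M (adjusted exact p = 0.640), and both calls depended on the expected count. With the product of total trans ends, 2R (log2 −0.05, adjusted exact p = 0.00951) and M (log2 −0.28, adjusted exact p = 0.0273) were called lower, and with the product of the ends in contacts between different chromosomes M was called lower (log2 −0.72, adjusted exact p = 0.00812). In the order of the means, Y was above X and 3L above 2R in 11 of 11 libraries each. Neighbours that changed places between libraries were X and 3L (X higher in 7 of 11), 2R and M (7 of 11), M and 3R (6 of 11), and 3R and 2L (6 of 11).

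**Figure D3:**
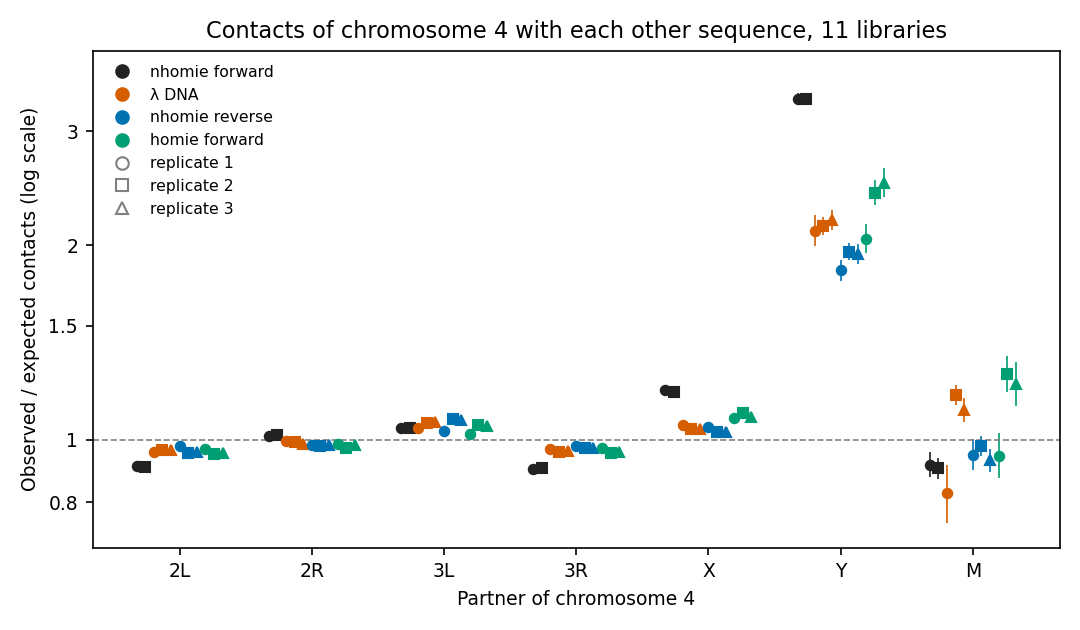
Observed over expected contacts of chromosome 4 (vertical axis, log scale) with each of its 7 partners (horizontal axis) in the 11 libraries, with 95% Poisson intervals of the observed count and a dashed line at 1. The ratio with Y lies between 1.83 and 3.36 in every library, while ratios with the 5 large arms lie between 0.900 and 1.19.

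Contacts between chromosome 4 and Y rested on 8167 and 11811 counts in *nhomie forward* replicates 1 and 2. They rested on 1261, 3583 and 3049 counts in replicates 1, 2 and 3 of *λ DNA*, on 2724, 3888 and 3064 in those of *nhomie reverse*, and on 1395, 1929 and 1461 in those of *homie forward*. The observed to expected ratio was 3.36 in both *nhomie forward* libraries. It was 2.11, 2.14 and 2.19 in *λ DNA*, 1.83, 1.96 and 1.94 in *nhomie reverse*, and 2.05, 2.41 and 2.50 in *homie forward*. Every library was above 1.8, and the lowest of the 11 was *nhomie reverse* replicate 1 (1.83). On the log2 scale the excess was 1.23 ± 0.34 (SD, n = 8; exact sign-flip test, p = 0.00781, adjusted p = 0.0104 over the 4 contrasts of Y, X, M, and the arms of chromosome 3 against those of chromosome 2).

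This pair had the highest ratio of all 28 pairs in 11 of 11 libraries, and no other pair exceeded 1.49 in any library. It exceeded the ratio of X with Y 1.79-fold (1.53- to 2.30-fold over the libraries), that of the arms of chromosome 2 with each other 1.78-fold and that of the arms of chromosome 3 with each other 1.91-fold. Each of these 3 differences was positive in 11 of 11 libraries (exact sign-flip permutation test over 8 samples, adjusted p = 0.00781 over the 3). The weight of X was taken over females and males together, whereas Y is in males only. The part of this in the ratio of X with Y, and so in the difference from it, was not tested. With the product of the ends in contacts between different chromosomes as the expected count, the excess of Y was smaller (geometric mean 1.44, range 1.13 to 2.04, above 1 in every library), and Y was the highest of the 7 partners in 8 libraries, while 3L was higher in the 3 *nhomie reverse* libraries. The Y chromosome is a small part of these libraries, with 0.0700% to 0.102% of all contact ends, and only reads that map to its assembled sequence were counted. Pairs were kept from a mapping quality of 3. The part of ends from repeats that were placed on the wrong sequence was not tested.

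The X chromosome exceeded the mean of the autosomal arms as a partner of chromosome 4, but was above 3L in only 7 of 11 libraries. The ratio of observed to expected contacts with X was 1.19 and 1.18 in *nhomie forward* replicates 1 and 2. It was 1.05, 1.04 and 1.04 in *λ DNA*, 1.05, 1.03 and 1.03 in *nhomie reverse*, and 1.08, 1.10 and 1.08 in *homie forward*. Every library was above 1, and the 2 *nhomie forward* libraries were above all others. Relative to the mean of 2L, 2R, 3L and 3R in the same library, X was 1.11-fold higher, with a range of 1.03- to 1.24-fold (log2 difference 0.15 ± 0.10, SD, n = 8; exact sign-flip test, adjusted p = 0.0104 over the 4 contrasts). This direction depends on the expected count. It held in 11 of 11 libraries with the product of total trans ends, and in 0 of 11 with the product of the ends in contacts between different chromosomes, a number that leaves out more of the partners of an autosomal arm than of X.

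Among the autosomal arms, the mean of 3L and 3R exceeded that of 2L and 2R slightly as partners of chromosome 4, by 1.03-fold (log2 difference 0.04, in 11 of 11 libraries; exact sign-flip test over 8 samples, adjusted p = 0.0104). Of the arms of chromosome 3, only 3L had a mean ratio above those of both arms of chromosome 2. The arms of 1 chromosome did not move together. The ratio was 1.02 to 1.08 with 3L but 0.900 to 0.976 with 3R, so that the libraries of these arms did not overlap. With 2R it was 0.970 to 1.02 and with 2L 0.908 to 0.978. The counts behind these ratios were 31015 to 250583 per library. The direction for 3R is not fixed, since with the product of total trans ends its mean ratio lay at the expected count (log2 0.0025). The ratio with M, the mitochondrial genome, which is not in the nucleus and whose contacts with chromosome 4 numbered 364 to 2932, ran from 0.826 to 1.27 and was above 1 in 4 of 11 libraries.

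When each count was instead divided by the product of the total trans ends of both sequences, which counts every trans contact of an arm, contacts within its own chromosome included, Y again had the highest ratio and X and 3L were again above 1 in every library. The ratio was 1.49 to 2.84 for Y, 1.002 to 1.21 for X, 1.02 to 1.07 for 3L and 0.946 to 1.04 for 3R. The lowest value for X, in *nhomie reverse* replicate 1, lay within counting error of 1. The ratio was 0.939 to 0.981 for 2R, 0.862 to 0.948 for 2L and 0.691 to 1.08 for M. The excess with Y was smaller on this scale (geometric mean 1.96) but was present in every library.

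Across the genotypes, the cis share of chromosome 4 was highest in *homie forward* and lowest in *nhomie reverse*, without passing the adjusted threshold. It was 69.1% ± 0.155 (SD, n = 2) in *nhomie forward*, 67.6% ± 1.09 in *λ DNA*, 63.6% ± 0.750 in *nhomie reverse* and 74.8% ± 5.06 in *homie forward* (n = 2 each). The exact permutation test of the F ratio gave p = 0.00952, the smallest that 8 samples allow, and an adjusted p of 0.0508 over the 8 sequences. None of the 8 sequences was called (background 0%). The spread within *homie forward* came from replicate 1. Without that library its difference from *nhomie reverse* rose from 11.2 to 14.8 points and passed the threshold (adjusted exact p = 0.0127), but *homie forward* was then 1 sample with no spread of its own. With all 11 libraries as separate samples, replicates 2 and 3 included, the difference was 12.6 points and passed as well (adjusted exact p = 0.00372). The order of the genotypes changed when the cis contacts were scaled by the share of cis contacts that spanned at least 1 kb in the library. This scaling gives chromosome 4 the share of its whole library, since its own was not counted. The scaled cis share was 42.7% ± 12.6 in *nhomie reverse*, 50.3% ± 6.65 in *λ DNA*, 54.96% ± 12.2 in *homie forward* and 58.9% ± 0.125 in *nhomie forward* (SD, n = 2 each). The test did not call it (exact permutation test, p = 0.448).

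Between the genotype means, the large arms moved in the same direction as chromosome 4. The mean cis share of the large arms was 75.7% to 77.2% in *nhomie reverse*, 80.5% to 82.1% in *λ DNA*, 84.0% to 84.4% in *nhomie forward* and 83.0% to 86.6% in *homie forward*. From replicate 1 to replicate 2 of *λ DNA*, chromosome 4 rose from 66.8% to 68.3% while the large arms fell from 82.1% to 80.5%. In *nhomie reverse*, chromosome 4 fell from 64.1% to 63.0% while the large arms rose from 75.7% to 77.2%. In *nhomie forward* and *homie forward* both moved the same way. The difference of chromosome 4 from them was −15.1 ± 0.137 points in *nhomie forward*, −13.7 ± 2.17 in *λ DNA*, −12.9 ± 1.80 in *nhomie reverse* and −9.93 ± 2.55 in *homie forward* (SD, n = 2 each). The share of all contact ends that lay on chromosome 4 was 0.632% ± 0.0138 in *nhomie forward*, 0.654% ± 0.145 in *λ DNA*, 0.696% ± 0.0481 in *nhomie reverse* and 0.723% ± 0.0983 in *homie forward* (SD, n = 2 each). The test over genotypes did not call it (exact permutation test, p = 0.724, adjusted p = 0.936).

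For the partners of chromosome 4, the test over genotypes called 0 of 7 after adjustment over the 28 pairs (exact permutation test of the F ratio, 8 samples), and the background was also 0%. The smallest p of this exact test with 8 samples is 0.00952, so that no pair could pass the adjustment alone. These counts of 0 thus say little about the genotypes. Without adjustment, 4 of 7 had an exact p under 0.05 (2R, 3R, X and Y), against 21.4% of all pairs. With the 11 libraries as separate samples, 5 of 7 were called after adjustment (2L, 2R, 3R, X and Y), against 32.1% of all pairs, and in this count libraries as alike as replicates 2 and 3 stand as separate samples. The same holds for the 4 of 7 called with 11 libraries and the replicate number as a block (14.3% of all pairs), and for the 7 of 7 called when replicate 1 was left out and the other 7 libraries stood as separate samples (53.6% of all pairs). The 2 *nhomie forward* libraries were above all 9 others in 3 of 7 partners (2R, X and Y; 32.1% of all pairs) and below all others in 2 of 7 (2L and 3R; 28.6% of all pairs). Over all pairs, these 2 libraries lay outside the other 9 in 60.7%.

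The ratio with Y was 3.36 ± 0.00113 in *nhomie forward*, 2.14 ± 0.0408 in *λ DNA*, 1.89 ± 0.0836 in *nhomie reverse* and 2.25 ± 0.288 in *homie forward* (SD, n = 2 each). The SD of *nhomie forward* is below counting error and does not give the precision of its ratio. Poisson intervals were 3.29 to 3.44 and 3.30 to 3.42 in its replicates 1 and 2. In the other genotypes the SD sets replicate 1 against the mean of replicates 2 and 3. Spreads of *nhomie forward* and of the other genotypes thus measure different things, for Y and for the other partners. The *nhomie forward* libraries were above every other library, whereas *λ DNA* and *homie forward* overlapped. The exact permutation test gave p = 0.0381, and p = 0.213 after adjustment over the 28 pairs (adjusted exact p = 0.00636 with 11 libraries). The ratio of X with Y, in which chromosome 4 has no part, was also highest in *nhomie forward*, at 1.49 and 1.46 against 1.13 to 1.36 elsewhere. The 2 *nhomie forward* libraries were also the deepest and had the lowest share of all ends, cis included, on Y (0.0700% and 0.0710%). Of the trans ends alone, Y held 0.368% and 0.369% in them, inside the range of the libraries (0.330% to 0.389%). The part of depth and of these shares in the difference was not tested.

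The ratio with X was 1.19 ± 0.00686 in *nhomie forward*, 1.05 ± 0.00926 in *λ DNA*, 1.04 ± 0.0139 in *nhomie reverse* and 1.08 ± 0.00748 in *homie forward* (SD, n = 2 each). The *nhomie forward* libraries were the highest and *homie forward* came next, and *λ DNA* and *nhomie reverse* overlapped. The exact permutation test gave p = 0.0190, and p = 0.200 after adjustment over the 28 pairs (adjusted exact p = 0.00545 with 11 libraries). For 2L the ratio was 0.909 ± 0.00164 in *nhomie forward*, and 0.960 ± 0.00633, 0.966 ± 0.0161 and 0.960 ± 0.0102 in *λ DNA*, *nhomie reverse* and *homie forward*. For 3R it was 0.903 ± 0.00307 in *nhomie forward*, and 0.964 ± 0.00706, 0.973 ± 0.00369 and 0.962 ± 0.0107 in the same order. Higher ratios with X in *nhomie forward* thus stood beside lower ratios with 2L and 3R, which the scaling of the weight of chromosome 4 ties to each other.

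The arm that carries the exchanged segment, 2R, had a ratio with chromosome 4 of 1.02 ± 0.00155 in *nhomie forward*, 0.992 ± 0.00507 in *λ DNA*, 0.981 ± 0.00240 in *nhomie reverse* and 0.980 ± 0.00639 in *homie forward* (SD, n = 2 each; exact permutation test, p = 0.0286, adjusted p = 0.200). The ratio with 3L lay between 1.04 and 1.05 in all 4 genotypes and did not pass the test (exact permutation test, p = 0.829, adjusted p = 0.889). The ratio with M was 0.909 ± 0.00812 in *nhomie forward*, 0.984 ± 0.223 in *λ DNA*, 0.950 ± 0.00361 in *nhomie reverse* and 1.09 ± 0.211 in *homie forward* (exact permutation test, p = 0.762). Within *λ DNA* and *homie forward* the spread came from replicate 1, with 0.826 against 1.17 and 1.11 in replicates 2 and 3 of *λ DNA*, and 0.945 against 1.27 and 1.22 in those of *homie forward*.

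**Figure D4:**
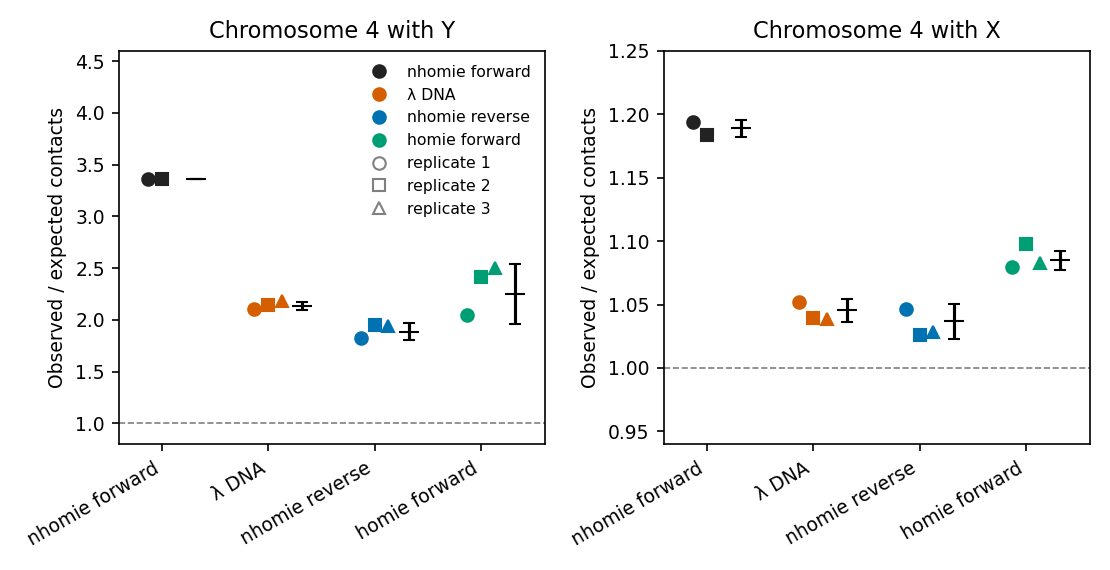
Observed over expected contacts of chromosome 4 with Y (left) and with X (right) by genotype, with 1 symbol per library and, to its right, the mean ± SD over 2 samples (black). The vertical axes are linear and do not start at 0. The 2 *nhomie forward* libraries lie above all others, at 3.36 with Y and at 1.18 and 1.19 with X.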

How the data were processed

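For each of the 11 MicroC libraries, the authors deposited 222 Pairtools statistics (counts, fractions and lengths in one column), of which the raw counts of pairs by pair of chromosomes and the chromosome lengths were used here. The authors aligned reads with BWA-MEM to a custom genome of each genotype edited from BDGP Release 6 (dm6), removed duplicates, pairs with an unmapped end and pairs with a mapping quality under 3, and made these counts before merging replicates. Tool versions are not given in the sources used here.

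Every count of chromosome 4 was analysed in every library, and no gene is measured in these counts, so that genes are named from RefSeq (Release 6) alone. The members, lists and tests were chosen with earlier results of these data known. The cis share is cis contacts over all contacts that touch a sequence. Expected counts are products of weights fitted by iterative scaling on the 8 pairs of large arms from different chromosomes, and the weight of chromosome 4, Y or M is its contacts with these arms over the sum of their weights. Since classes of 1 library add up to its total, no count model was fitted. Libraries of a genotype whose chi-square over the 28 pairs was under 2 for each degree of freedom were averaged as 1 sample. The 4 genotypes were tested by exact permutation of the F ratio (two-sided, all 2520 assignments of 8 samples), and paired differences within libraries with an exact sign-flip permutation test (smallest p = 0.00781). Calls were made at a Benjamini-Hochberg adjusted p under 0.05. Depth was 87012109 to 472473246 unique contacts, and Wilson and Poisson intervals (95%) cover counting error only. The Methods call the replicates independent and biological.

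Replicate numbers were checked for pairing over the 28 pairs. Of 15 pairs of libraries with the same number in different genotypes, 11 deviated together from their genotype means (correlation over 0.1, range −0.454 to 0.831), against 8 of 30 pairs with different numbers. Since not every pair with the same number did, and no source says what a number shares, the numbers were not taken as pairs. Alternatives were all libraries as separate samples, a replicate block, other expected counts (products of total trans ends, or of ends in contacts between different chromosomes), other scales and each library left out in turn. Python 3.11.15, numpy 2.4.6, scipy 1.17.1 and matplotlib 3.10.9 were used. The tests over genotypes were first tested on simulated data made with and without a known difference. The sign-flip test was tested on simulated data without a difference only. With 8 samples, the test over genotypes missed most simulated shifts of a single genotype, so that a count of 0 called does not show that genotypes are alike.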

Additional observations from a re-analysis of the deposited data

Results flagged for a closer look

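The excess of contacts of chromosome 4 with X over the mean of the autosomal arms differed between genotypes before adjustment (exact permutation test of the F ratio over 8 samples, p = 0.0190, adjusted p = 0.0762 over 4 contrasts). It was 1.23-fold in *nhomie forward*, 1.05-fold in *λ DNA*, 1.04-fold in *nhomie reverse* and 1.10-fold in *homie forward*. The ratio of chromosome 4 with Y to its expected count also differed between genotypes before adjustment (same exact test, p = 0.0381, adjusted p = 0.0762 over 4 contrasts), and both *nhomie forward* libraries were above the other 9. Neither difference passed the adjusted threshold, and genotype, stock and depth cannot be told apart in them.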

How the results depend on the processing

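The cis share over genotypes (*homie forward* minus *nhomie reverse*, 11.2 points) passed the threshold only where replicates 2 and 3 stood as separate samples or *homie forward* was left with 1 sample. These were 11 libraries (12.6 points, without and with a replicate block) and, chosen after the data were seen, the 9 libraries without *nhomie forward* (12.6) and the 7 without replicate 1 (15.3). It did not pass with replicates 2 and 3 as 1 sample and the block (adjusted exact p = 0.143), with *nhomie forward* left out (0.0889) or as 1 sample (0.114), or with cis contacts scaled to those of at least 1 kb (0.448). Partners called over genotypes numbered 0, but 5 with 11 libraries, 4 with 11 libraries and the replicate block, 4 on unadjusted p and 7 with 7 libraries as separate samples and no replicate 1, against 32.1%, 14.3%, 21.4% and 53.6% of all 28 pairs. With 8 samples and the block, 0 were called, where the smallest exact p is 0.0417. Counting trans ends only turned the difference in the share of ends between *homie forward* and *nhomie forward* from 0.0906 to −0.0951 points, and with 7 libraries as separate samples and no replicate 1 it was 0.150 and passed. With ends in contacts between different chromosomes as the expected count, which leaves out more partners of an autosomal arm than of X, X against the autosomal arms turned to log2 −0.40, X against expected to −0.33 and 3R to 0.12. With total trans ends 3R turned to 0.0025. For M against expected the sign turned with 11 libraries (0.014), with the 9 without *nhomie forward* (0.048) and with the 7 without replicate 1 (0.10), where it was not called. Y against expected fell from log2 1.23 to 0.53 with ends in contacts between different chromosomes. Leaving out each library in turn gave 11.2 to 14.8 points for the cis share over genotypes (adjusted exact p = 0.0127 to 0.120), −13.1 to −12.6 against the large arms, log2 1.16 to 1.28 for Y, 0.12 to 0.15 for X, 0.0386 to 0.0433 for the arms of 3 against 2, 0 to 0 partners called and 0.0808 to 0.160 points for the share of ends. Of the other recomputed values, 108 of comparisons and 253 of single partners kept direction and side of the threshold, and 22 of single partners came to pass it. These tallies include settings that could change little. Where replicate 2 or 3 of *λ DNA*, *nhomie reverse* or *homie forward* was left out, the other of these 2 replicates still stood for their sample. Depth limits the ratios with M and Y most, with as few as 364 and 1261 contacts.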
